A study of Mus musculus with 14 samples.

Results

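The transcripts of the autophagy machinery and its receptors were measured in bulk RNA-seq libraries of mouse embryonic stem (ES) cells of the E14 line under the mTOR inhibitor INK128 (mTORi, 200 nM). The 40 genes were taken by name from a list of known autophagy genes, and each matched 1 of the 54446 gene identifiers in the files. They comprised the initiation kinase complex, the class III PI3-kinase complex, membrane supply and PI3P effectors and the conjugation genes. The ATG4 proteases, the ATG8 proteins, the receptors and the late factors made up the rest. Wild-type cells were untreated (0 h) or under mTORi for 24, 72 or 144 h. Cells labelled *Tet1/2* double knockout (DKO) were untreated or under mTORi for 24 or 72 h. Each of the 7 groups held 2 replicates, 14 libraries in all. Both lines have the E14 background and grew in serum and LIF without feeder cells, and no untreated group of the later times is among the libraries. The DKO cells were made by cutting at exons of *Tet1* and *Tet2* with Cas9 and sorting single cells. How many clones entered the RNA-seq is not given in the sources used here.

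Autophagy is the process in which a double membrane closes around cytoplasm or a chosen cargo and delivers it to the lysosome. When nutrients are plentiful, mTOR complex 1 phosphorylates and restrains the ULK1 kinase complex, so mTOR inhibitors are widely used to start autophagy. ULK1 activates the class III PI3-kinase, whose lipid product PI3P recruits WIPI proteins. Ubiquitin-like conjugation systems then attach ATG8 proteins (the LC3 and GABARAP families) to the growing membrane, where receptors dock their cargo. Much of this control acts on proteins, which RNA-seq does not measure.

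Values are given as TPM, a transcript abundance scaled to transcript length and to a fixed total per library, after multiplication by 1 spike-in factor per library (spike-in TPM). The values as deposited (deposited TPM) carry no such factor and sum to 1000000 in every library. All genes of a library share 1 factor. A change in spike-in TPM therefore mixes the share of a gene among transcripts with the library factor, and a change in deposited TPM is one of the share alone. The largest factor was 2.81 times the smallest. In these bulk samples, fewer cells of a type and less RNA per cell cannot be told apart. Fold changes are log2 changes of spike-in TPM + 1 from limma, given with their standard error. A gene was called at a Benjamini-Hochberg adjusted p under 0.05 over the 18232 genes tested, and all 40 autophagy genes were among these. TPM keep no read counts, so the depth is unknown here and no counting error can be given.

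*Tet2*, 1 of the targeted genes, was at 210.4 and 203 spike-in TPM in wild type and 53.9 and 52.7 in the libraries labelled DKO at 0 h. It was called lower in them at all 3 shared times. *Tet1* was at 416 and 403 in wild type and 427 and 349 in DKO at 0 h. In spike-in TPM it was called different between the genotypes at none of the 3 shared times. In deposited TPM *Tet1* was at 197 and 191 in wild type and 152 and 147 in DKO at 0 h. Every DKO library lay below both wild-type ones at each shared time on that scale, with log2 differences of −0.38, −0.51 and −0.31 at 0, 24 and 72 h (adjusted p = 0.0893, 0.0239 and 0.0749). The *Tet1* transcript thus remained abundant in the libraries labelled DKO, and DKO below stands for the label. The study reports the knockout of both genes from PCR screens of clones and from western blots for TET1 and TET2. A TPM summed over a gene does not show which exons were read, so it does not speak to the protein. ES cell markers were detected in every library, with *Pou5f1*, *Sox2*, *Nanog*, *Zfp42* and *Esrrb* summing to between 2530.05 and 6439.7 spike-in TPM. The 5 primitive endoderm markers (*Gata6*, *Gata4*, *Sox17*, *Dab2* and *Sox7*), none at 0 in any library, summed to 23.5 and 78.6 in wild type at 0 h and 129 and 281 (24 h), where 3 of the 5 (*Gata6*, *Gata4* and *Sox17*) were called higher. They were at 20.1 and 50.2 (72 h), and in DKO at 98.4 and 26.6 (0 h), 125 and 35.8 (24 h) and 69.2 and 36 (72 h). Sums over trophectoderm, mesendoderm, neuroectoderm and fibroblast markers reached at most 184, 16.3, 37.9 and 41.9 in any library, the first in wild type at 24 h, and the trophectoderm marker *Elf5* and the fibroblast marker *Dcn* were at or near 0 throughout. The 2 libraries of a group differed by a median of 0.0935 to 0.186 on the log2 scale in deposited TPM over genes at 10 TPM or more. No pair held identical values. In spike-in TPM, replicate 1 was above replicate 2 for 40 of the 40 autophagy genes in DKO at 24 h and again at 72 h, against 26 and 24 of 40 in deposited TPM. Its factor there was 1.65 and 1.47 times that of replicate 2. In wild type at 24 h, replicate 1 was above replicate 2 for 2 of 40, against 16 in deposited TPM.

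The untreated wild-type cells expressed all 40 genes, over a wide range of levels. Mean spike-in TPM at 0 h ran from 1.55 for *Ulk2* to 494 for *Calcoco2*, with a median of 52.8, and 34 of the 40 genes were at 10 or more. The highest after *Calcoco2* (494 ± 90.4, SD, n = 2) were *Gabarapl2* (408 ± 19.7), *Tax1bp1* (209 ± 14.3), *Sqstm1* (181.8 ± 0.35), *Nbr1* (156 ± 10.3) and *Ulk1* (135 ± 18.5), so that 4 of the 6 most abundant transcripts encode cargo receptors. *Calcoco2* and *Gabarapl2* differed by less than the SD of *Calcoco2*, and *Atg101* (99.8 ± 9.80) and *Atg13* (99.3 ± 35.0), next in order after *Ulk1*, by less than either SD. The lowest were *Atg10* (4.84 ± 0.0520), *Wipi1* (3.36 ± 0.0745) and *Ulk2* (1.55 ± 0.330). At 144 h of mTORi *Gabarapl2* (110.4 ± 4.57), *Tax1bp1* (106 ± 3.79) and *Ulk1* (100.2 ± 6.58) were the highest, and *Calcoco2* had moved from rank 1 to rank 34.

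The first comparison asked how these genes changed as wild-type cells went through mTORi. At 24 h *Wipi1* and *Calcoco1* rose and *Calcoco2* and *Atg5* fell. At 72 h *Optn* rose and *Calcoco2* was again called lower. At 144 h 25 of the 40 genes were called lower in spike-in TPM and none was called higher. In deposited TPM, 6 of these 25 were called lower, 10 had a value below 0 that was not called, and 9 had a value above 0. All 4 genes called at 24 h and both called at 72 h were called in the same direction in deposited TPM. The background of all genes tested was 8.73% lower and 1.25% higher after 24 h, and 7.60% lower and 0.697% higher after 72 h. After 144 h 50.5% of all genes were called lower and 0.461% higher, and the 25 of 40 genes at 144 h are to be read against that share. At unadjusted p under 0.05 the comparison held 11, 11 and 27 of the 40 genes at the 3 times, beside 26.7%, 25.7% and 58.2% of all genes. The 40 genes had a median log2 change of −0.16, −0.38 and −0.93 at these times, beside −0.33, −0.33 and −0.83 for all genes tested. The 24 h median of the 40 was 0.053 without wild-type 24 h replicate 1 and −0.40 without replicate 2 (all genes −0.14 and −0.51). In deposited TPM the median of the 40 was 0.19, 0.04 and 0.05, beside −0.01, 0.04 and 0.05.

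The replicate numbers pair the libraries within a genotype, and a fit with that pairing as a block moved these counts. It called 6 of the 40 genes lower and 5 higher after 24 h (25.7% and 4.48% of all genes). After 72 h it called 9 lower and 4 higher (25.4% and 2.85%), and after 144 h 33 lower and 3 higher (66.3% and 1.05%). All genes called without the block stayed called with it. It added *Ulk1*, *Ulk2* and *Gabarap* (24 h), *Ulk2*, *Wipi1* and *Calcoco1* (72 h) and *Ulk2*, *Wipi1* and *Optn* (144 h) to those called higher. The 8 added to those called lower at 144 h were *Atg13*, *Pik3c3*, *Atg9a*, *Atg2b*, *Atg4b*, *Atg4d*, *Map1lc3b* and *Bnip3l*. In deposited TPM without the block, 5 fell and 14 rose by 24 h (14.1% and 15.8% of all genes), 6 fell and 7 rose by 72 h (11.4% and 12.6%), and 6 fell and 9 rose by 144 h (11.7% and 15.6%). Leaving out 1 of the 4 wild-type libraries at 0 or 144 h lowered the 25 calls to 14 and 12 (0 h replicates 1 and 2) or 13 and 10 (144 h replicates 1 and 2). The share of all genes called lower went to 34.9%, 23.9%, 29.9% and 21.5% in the same 4 fits. The fit then treats the lone library as varying like the others. Of the 25, 9 held in all 14 fits without 1 library (*Atg101*, *Atg14*, *Atg16l1*, *Atg5*, *Atg12*, *Map1lc3a*, *Gabarapl2*, *Sqstm1* and *Calcoco2*).

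**Figure D1:**
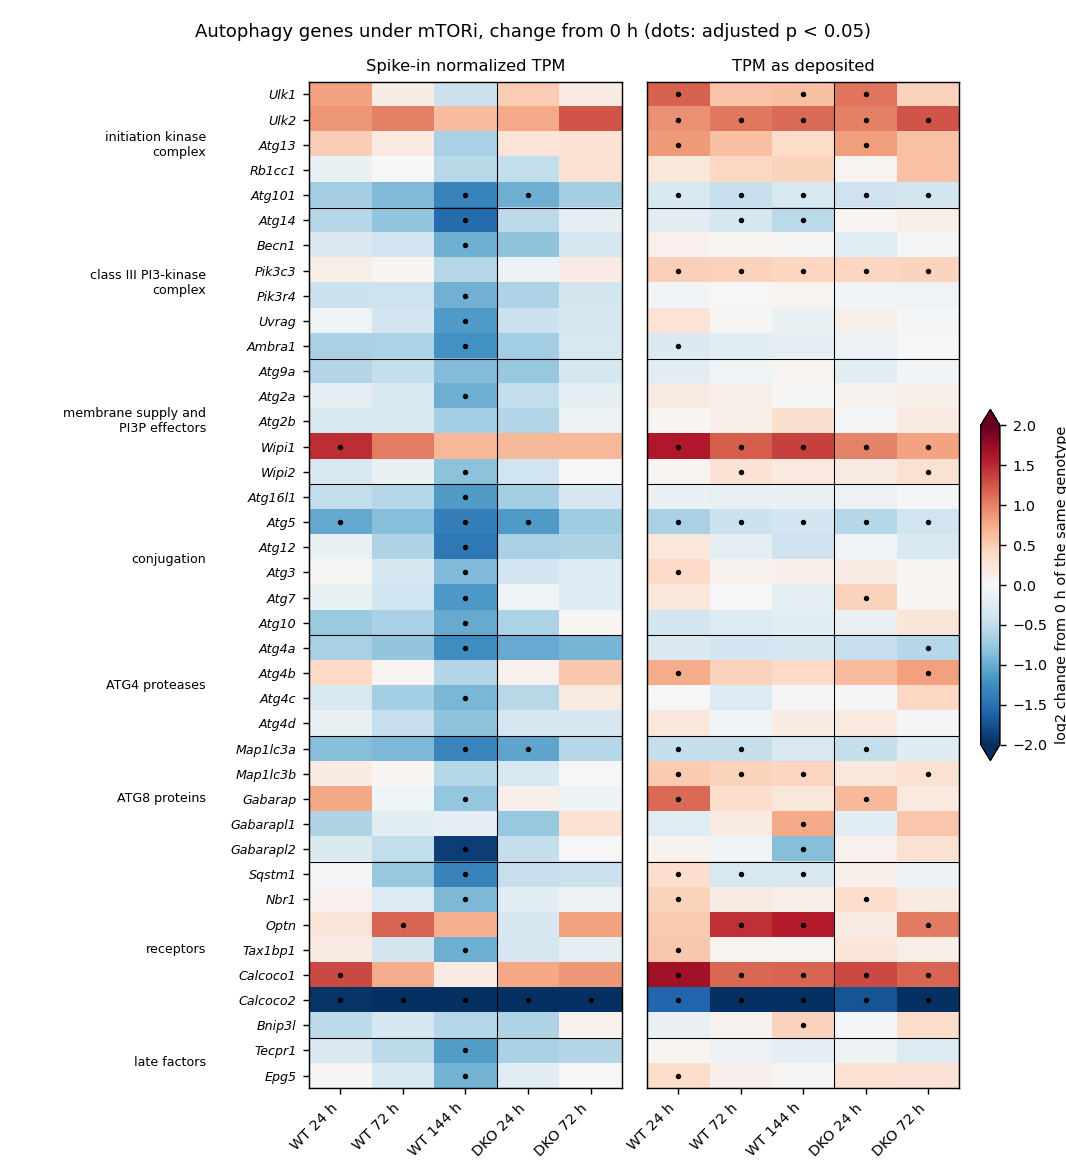
Log2 change of the 40 autophagy genes (rows, in groups by role) from 0 h of the same genotype, in spike-in TPM on the left and in deposited TPM on the right, on a colour scale that ends at −2 and 2; dots mark genes with a limma adjusted p under 0.05. At WT 144 h 25 genes carry a dot on the left, all lower, against 6 lower and 9 higher on the right, and *Calcoco2* is lower in all 5 columns of both panels.

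**Figure D2:**
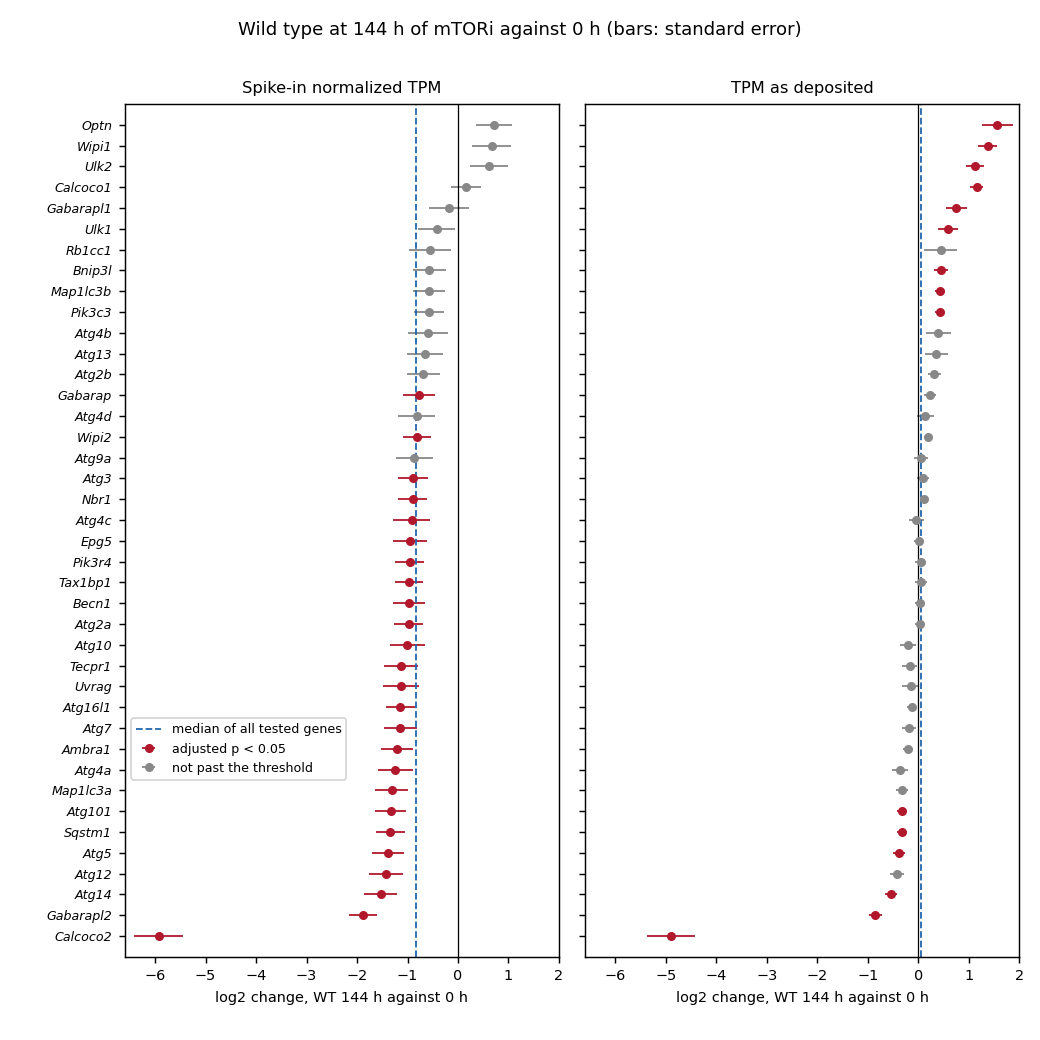
Log2 change of each autophagy gene in wild type at 144 h against 0 h (x axis) with its standard error as a bar, in spike-in TPM on the left and deposited TPM on the right, with the median of all genes tested as a dashed line (−0.83 and 0.05). *Calcoco2* lies far below the line at −5.93 and −4.90, and *Optn*, *Wipi1*, *Ulk2* and *Calcoco1* are the 4 genes above 0 on the left.

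Promoter sequences are shown for *Wipi1* and *Calcoco1*, the 2 genes called higher at 24 h, as the stretch before the RefSeq start of each. DNA methylation, on which TET enzymes act, falls on CpG sites, and TFEB and TFE3, which mTOR restrains, are known to bind the E-box CACGTG in autophagy genes. The sequences are RefSeq promoter windows on GRCm38.p6 (mm10), read 5′ to 3′ on the gene's strand (minus for both), trimmed to the bases before the start and before any annotated exon of the gene, with CpG sites in capitals.
*Wipi1*, chr11:109611433-109611639: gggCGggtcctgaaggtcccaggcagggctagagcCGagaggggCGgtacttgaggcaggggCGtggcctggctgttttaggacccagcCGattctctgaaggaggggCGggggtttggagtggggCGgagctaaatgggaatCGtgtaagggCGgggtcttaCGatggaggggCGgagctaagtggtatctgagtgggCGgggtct
*Calcoco1*, chr15:102722179-102722428: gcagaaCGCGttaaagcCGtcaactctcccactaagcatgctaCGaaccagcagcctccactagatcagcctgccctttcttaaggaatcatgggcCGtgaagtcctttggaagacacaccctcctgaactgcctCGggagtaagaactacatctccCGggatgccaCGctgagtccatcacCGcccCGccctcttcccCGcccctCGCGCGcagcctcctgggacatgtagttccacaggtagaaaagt
The *Wipi1* stretch of 207 bases held 12 CpG sites and the *Calcoco1* stretch of 250 bases held 14, and neither held CACGTG. The *Calcoco1* stretch lies directly before the 5′ end of the gene in the GENCODE annotation, and the *Wipi1* stretch directly before the shared first exon of its 3 annotated coding transcripts and inside the first intron of a longer non-coding one. No methylation or binding was measured in the files used here.

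Windows from 250 bases before to 50 bases after the start were given for 31 of the 40 genes, 35 windows in all. *Atg12*, *Calcoco2*, *Epg5*, *Becn1*, *Pik3c3*, *Bnip3l*, *Rb1cc1*, *Map1lc3a* and *Atg16l1* had none. They held a median of 20 CpG sites, against 7 in all 32851 windows of the table. CACGTG, which reads the same on both strands, occurred in 4 of the 35 windows (11.4%), against 2349 of all windows (7.15%). Its longer form, with T before it and A after it, occurred in 1 (2.86%), against 320 (0.974%). These are counts of letters and were not tested. The 4 windows belong to *Atg14*, *Atg3*, *Atg5* and *Atg7*, all called lower in spike-in TPM at wild-type 144 h, as were 25 of the 40 genes and 50.5% of all genes. Of the 4, *Atg14* and *Atg5* were also called lower in deposited TPM and *Atg3* and *Atg7* were not called. The E-boxes are shown in 30 bases each, on the gene's strand, with CACGTG in capitals.
*Atg14*, chr14:47568418-47568447 (minus strand), beginning 1 base before the start and running across it: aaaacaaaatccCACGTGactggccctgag
*Atg3*, chr16:45158723-45158752 (plus strand), 94 bases before the start: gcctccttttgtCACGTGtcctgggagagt
*Atg3*, the longer form, chr16:45158746-45158775 (plus strand), 71 bases before the start: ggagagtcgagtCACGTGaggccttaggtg
*Atg5*, chr10:44268313-44268342 (plus strand), 14 bases before the start: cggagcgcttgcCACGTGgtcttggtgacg
*Atg7*, chr6:114670952-114670981 (plus strand), 132 bases before the start: catattggtggtCACGTGtgcagtaagtga

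In the initiation kinase complex, *Ulk1* (ENSMUSG00000029512.11, mm10 chr5:110784488-110810097, minus strand) encodes the kinase that starts autophagy and was the most abundant member. Its spike-in TPM in wild type was 122 and 148 (0 h), 171 and 328 (24 h), 157 and 143 (72 h) and 105 and 95.5 (144 h). All 4 libraries of 0 and 144 h lay below those of 24 h. The log2 change was 0.81 ± 0.36 at 24 h (adjusted p = 0.155) and −0.42 ± 0.36 at 144 h (adjusted p = 0.329). On the deposited scale it rose by 1.18 ± 0.20 at 24 h (adjusted p = 0.00168) and by 0.59 ± 0.20 at 144 h (adjusted p = 0.0467), while its spike-in level was not called changed. Under the replicate block the 24 h change in spike-in TPM was called (adjusted p = 0.0205). *Ulk2*, a paralogous kinase, was scarce in wild type, at 1.32 and 1.78 (0 h), 3.67 and 3.72 (24 h), 3.83 and 4.37 (72 h) and 2.90 and 2.87 (144 h) spike-in TPM. All its treated libraries lay above both untreated ones. The changes of 0.89, 1.003 and 0.61 at 24, 72 and 144 h had adjusted p of 0.137, 0.10 and 0.178. They were called in deposited TPM and with the replicate block (adjusted p = 0.0112, 0.00578 and 0.0345).

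*Atg101*, whose protein stabilises ATG13, was the 1 of the 5 genes of the complex called lower at 144 h. It was at 92.9 and 107 (0 h), 54.6 and 68.2 (24 h), 59.9 and 47.7 (72 h) and 41.7 and 36.1 (144 h) spike-in TPM. The log2 change was −1.34 ± 0.30 at 144 h (adjusted p = 0.00192), and in deposited TPM it was also called lower at all 3 times (−0.33, −0.46 and −0.32). *Atg13*, which bridges the kinase to its partners, was at 74.5 and 124 (0 h) and 63.2 and 58.5 (144 h) and was not called in spike-in TPM at any time without the block. The scaffold *Rb1cc1* (FIP200) was not called on either scale. Shares within the complex do not depend on the spike-in factor. *Ulk1* made up 36.3% and 33.7% of its summed TPM (0 h), 47.3% and 50.3% (24 h) and 43.2% and 40.9% (144 h). *Atg101* made up 27.6% and 24.2%, 15.1% and 10.4% and 17.2% and 15.4%. In DKO, *Ulk1* was at 181 and 126 (0 h), 329.6 and 141 (24 h) and 206 and 139 (72 h) and *Ulk2* at 4.28 and 2.64 (0 h), 9.13 and 4.43 (24 h) and 12.8 and 7.06 (72 h) spike-in TPM. Both DKO groups under mTORi held a replicate 1 well above replicate 2 for these genes. *Atg101* was called lower in DKO at 24 h (−0.98 ± 0.30, adjusted p = 0.0277). That call was lost without either DKO 0 h library (adjusted p = 0.246 and 0.0613) or without DKO 24 h replicate 2 (0.224).

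The class III PI3-kinase complex makes the lipid PI3P. *Atg14*, the subunit that directs the kinase to the site where autophagosomes form, changed most in it, at 42.1 and 49.8 (0 h), 26.4 and 34.9 (24 h), 29.4 and 23.4 (72 h) and 16.4 and 13.9 (144 h) spike-in TPM in wild type. The levels at 144 h were below all earlier ones, with a log2 change of −1.53 ± 0.32 (adjusted p = 0.00128). *Atg14* was also called lower in deposited TPM (−0.54 ± 0.11, adjusted p = 0.0066). In DKO it was at 44.5 and 40.5 (0 h), 39.7 and 21.7 (24 h) and 45.1 and 30.8 (72 h) and was not called. *Pik3c3*, the lipid kinase itself and the most abundant member on average, was at 58.8 and 66.5 (0 h), 60.9 and 75.4 (24 h), 71.9 and 57.6 (72 h) and 44.4 and 38.9 (144 h) in wild type and 77 and 65.5 (0 h), 82.2 and 51.9 (24 h) and 94.7 and 66.6 (72 h) in DKO. It was the 1 gene of the 6 not called lower in wild type at 144 h (−0.58 ± 0.29, adjusted p = 0.102), when 50.5% of all genes were called lower. As deposited, it was called higher at each time, by 0.48, 0.46 and 0.43 in wild type and by 0.43 and 0.45 in DKO. In the blocked fit it was called lower at 144 h in spike-in TPM (adjusted p = 0.0237), the direction opposite to deposited TPM. *Becn1*, *Pik3r4*, *Uvrag* and *Ambra1*, which bind or regulate the kinase, fell by 0.96 to 1.21 on the log2 scale at 144 h in spike-in TPM, while in deposited TPM none of them was called at 144 h and *Becn1* and *Pik3r4* had values just above 0.

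Among the genes of membrane supply and PI3P binding, *Wipi1* (ENSMUSG00000041895.15, mm10 chr11:109573331-109611967, minus strand), which reads PI3P on the early membrane, rose from a low level; its promoter stretch is printed above. Its spike-in TPM in wild type was 3.42 and 3.31 (0 h), 10.9 and 11.3 (24 h), 7.47 and 8.33 (72 h) and 6.19 and 5.66 (144 h). Every treated library was above every untreated one. The log2 change was 1.48 ± 0.38 at 24 h (adjusted p = 0.0189), 1.03 ± 0.38 at 72 h (adjusted p = 0.0977) and 0.67 ± 0.38 at 144 h (adjusted p = 0.149). With the replicate block all 3 were called (adjusted p = 3.20e-04, 0.00588 and 0.0257). The 24 h call was lost in the 4 fits that each left out a wild-type library of 0 or 24 h (adjusted p = 0.0701 to 0.124). In DKO *Wipi1* was at 5.91 and 4.93 (0 h), 13.6 and 5.91 (24 h) and 13 and 6.44 (72 h). In deposited TPM it was called higher in all 5 treated groups, by 1.60, 1.22 and 1.37 in wild type and 0.996 and 0.80 in DKO. Primitive endoderm markers rose in the same wild-type 24 h libraries, as given above, and their part in the rise of *Wipi1* was not tested. At 144 h those markers summed to 12.8 and 11.4, below their level at 0 h. These later sums do not speak to the rise at 24 h. The *Wipi1* change at 144 h was not called without the block, and its relation to the sums was not tested.

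*Wipi2*, the more abundant paralogue, which recruits ATG16L1, was at 95.4 and 98.3 (0 h), 70.3 and 86.1 (24 h), 96.9 and 80.1 (72 h) and 56.7 and 52.3 (144 h) in wild type and 117 and 112 (0 h), 108 and 69.4 (24 h) and 133 and 99.8 (72 h) in DKO. It was called lower at 144 h in spike-in TPM (−0.82 ± 0.28, adjusted p = 0.0201) and had a value of 0.19 in deposited TPM (adjusted p = 0.135), so its sign depends on the scale. *Atg9a*, a lipid scramblase carried on vesicles, and the lipid transfer protein genes *Atg2a* and *Atg2b* had log2 changes of −0.86, −0.98 and −0.69 at 144 h, of which that of *Atg2a* was called. In deposited TPM the 3 values were 0.060, 0.027 and 0.32 and none was called.

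All 6 conjugation genes were called lower in wild type at 144 h in spike-in TPM, as were 50.5% of all genes. The 6 fell by 0.89 to 1.43 on the log2 scale, with a group median of −1.14. In deposited TPM the median was −0.19, 1 of the 6 was called lower and *Atg3* was above 0 (0.099). *Atg5*, which is joined to ATG12 to form part of the enzyme that lipidates ATG8 proteins, was at 47.4 and 58.4 (0 h), 21.1 and 30.4 (24 h), 30.1 and 27.3 (72 h) and 20.4 and 18.7 (144 h) spike-in TPM in wild type. The change at 24 h was −1.03 ± 0.33, with an adjusted p of 0.04998, and this call was lost in 10 of 14 fits without 1 library. It stood at −1.39 ± 0.33 at 144 h (adjusted p = 0.0026). In DKO it was at 69.3 and 61.4 (0 h), 40.01 and 21.2 (24 h) and 48.4 and 32.3 (72 h). The change at 24 h was called there (−1.13 ± 0.33, adjusted p = 0.0205), though not without either DKO 0 h library or 24 h replicate 2, and in deposited TPM it was called lower in all 5 treated groups. *Atg12* itself was at 60.8 and 75.3 (0 h), 48.1 and 79.3 (24 h), 45.9 and 43 (72 h) and 24.1 and 25.1 (144 h) in wild type and 92.7 and 82.2 (0 h), 78.6 and 38.5 (24 h) and 68.1 and 47.6 (72 h) in DKO. The change was −1.43 ± 0.33 at wild-type 144 h (adjusted p = 0.00248). Its deposited TPM were 28.8 and 35.7 (0 h) and 22.5 and 25.1 (144 h). That change of −0.42 was not called without the replicate block (adjusted p = 0.053) and had an adjusted p of 0.0193 with it.

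*Atg16l1*, the membrane-binding partner of the ATG12 and ATG5 conjugate and the most abundant of these genes, was at 90.7 and 97.2 (0 h), 57.8 and 75.9 (24 h), 68.1 and 58.5 (72 h) and 44.4 and 39.8 (144 h) spike-in TPM in wild type and 116 and 112 (0 h), 89.3 and 56.1 (24 h) and 105 and 77.6 (72 h) in DKO. Its fall at 144 h (−1.14 ± 0.28, adjusted p = 0.00376) was −0.13 in deposited TPM (adjusted p = 0.302). *Atg7* (the E1-like enzyme), *Atg3* and *Atg10* (the E2-like enzymes) fell by 1.14, 0.89 and 1.004 at 144 h on the log2 scale of spike-in TPM. *Atg10* was the scarcest member at 144 h, at 4.88 and 4.80 (0 h), 2.52 and 2.48 (24 h), 3.17 and 2.31 (72 h) and 1.90 and 1.92 (144 h) in wild type and 5.07 and 5.89 (0 h), 4.04 and 2.45 (24 h) and 7.01 and 4.47 (72 h) in DKO. The 2 DKO libraries of 72 h lay on either side of those of 0 h.

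The ATG4 proteases trim new ATG8 proteins and release them from membranes. *Atg4b*, the main family member, was at 31.6 and 39.3 (0 h), 34.8 and 62.6 (24 h), 34.6 and 38.4 (72 h) and 24.5 and 21.8 (144 h) spike-in TPM in wild type and 63.8 and 43.2 (0 h), 95.3 and 32.7 (24 h) and 95.8 and 61.4 (72 h) in DKO. Its replicates differed widely under mTORi at 24 h in both genotypes, and it was not called in spike-in TPM without the block. On the deposited scale it was called higher in wild type at 24 h (0.74 ± 0.24, adjusted p = 0.0412) and in DKO at 72 h (0.82 ± 0.24, adjusted p = 0.0318). *Atg4a* was at 8.33 and 9.14 (0 h), 5.17 and 5.22 (24 h), 4.99 and 4.26 (72 h) and 2.82 and 3.46 (144 h) in wild type and 13.3 and 12.3 (0 h), 8.26 and 4.08 (24 h) and 7.60 and 5.13 (72 h) in DKO. The changes were −1.24 ± 0.35 at wild-type 144 h (adjusted p = 0.0082), −1.01 ± 0.35 at DKO 24 h (adjusted p = 0.0503) and −0.93 ± 0.35 at DKO 72 h (adjusted p = 0.145). Under the replicate block the 2 DKO changes were called (adjusted p = 0.00404 and 0.0158). Because 51.2% of the 50-base stretches of its annotated transcripts also occur in the pseudogene *Atg4a-ps*, its values are uncertain. *Atg4c* was at 7.60 and 8.54 (0 h), 5.08 and 7.64 (24 h), 4.55 and 4.77 (72 h) and 3.52 and 4.10 (144 h) in wild type and 13.4 and 11.5 (0 h), 11.3 and 5.79 (24 h) and 18.1 and 11 (72 h) in DKO. It was called lower in wild type at 144 h (−0.91 ± 0.36, adjusted p = 0.0426), while *Atg4d* was not (−0.82 ± 0.37, adjusted p = 0.0689). The *Atg4c* call was lost in 8 of 14 fits without 1 library (adjusted p = 0.0513 to 0.183).

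ATG8 proteins coat the autophagosome membrane and hold the receptors. *Gabarapl2* (GATE-16; ENSMUSG00000031950.7, mm10 chr8:111940703-111953612, plus strand) was by far the most abundant of the 5, at 422 and 394 (0 h), 308 and 358 (24 h), 297 and 282 (72 h) and 114 and 107 (144 h) spike-in TPM in wild type. Its levels were close between replicates and dropped mainly between 72 and 144 h. The log2 change at 144 h was −1.88 ± 0.27 (adjusted p = 9.98e-05), against −0.49 ± 0.27 at 72 h (adjusted p = 0.269). As deposited, it was also called lower at 144 h (−0.85 ± 0.13, adjusted p = 0.00162). In DKO it was at 597 and 705 (0 h), 571 and 377 (24 h) and 803 and 519 (72 h) and was called at neither time. Of its transcript 50-mers, 12.2% also occur in other genes, of which *Gm3724*, *Gm6051* and *Gm5829* share most. Their mean spike-in TPM was 23.8, 10.02 and 0.456 in wild type at 0 h and 5.82, 1.51 and 0.0852 at 144 h. In DKO the means were 34.9, 13.3 and 0.738 (0 h) and 32.98, 15.3 and 1.02 (72 h).

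*Map1lc3b*, the LC3 gene most often used to follow autophagy, was at 83 and 84.4 (0 h), 76.9 and 114 (24 h), 92.7 and 79.4 (72 h) and 58.1 and 53.7 (144 h) in wild type. Its change at 144 h was −0.57 ± 0.31 in spike-in TPM (adjusted p = 0.122) and 0.44 ± 0.10 in deposited TPM (adjusted p = 0.00996), opposite directions on the 2 scales. In the blocked fit the lower spike-in value was called (adjusted p = 0.0355). *Map1lc3a* was called lower at wild-type 144 h (−1.32 ± 0.34, adjusted p = 0.00429) and at DKO 24 h (−1.05 ± 0.34, adjusted p = 0.0345). It was at 38.5 and 40.9 (0 h), 20.3 and 22.9 (24 h), 22.3 and 19.4 (72 h) and 15.5 and 15.2 (144 h) in wild type and 65.6 and 46.3 (0 h), 35.8 and 19.1 (24 h) and 48.1 and 28.2 (72 h) in DKO. The DKO call was lost in 7 of 14 fits without 1 library. *Gabarap* was at 82.6 and 88.9 (0 h), 118 and 182 (24 h), 79.8 and 82.4 (72 h) and 50.02 and 49.2 (144 h) in wild type, highest at 24 h. The 24 h change of 0.77 ± 0.31 in spike-in TPM was not called (adjusted p = 0.122) without the block and was called with it (adjusted p = 0.0156) and in deposited TPM (1.13, adjusted p = 1.23e-04). At 144 h the sign depended on the scale, with −0.78 ± 0.31 in spike-in TPM (adjusted p = 0.0451) and 0.23 in deposited TPM (adjusted p = 0.15). The former call was lost in 8 of 14 fits without 1 library (adjusted p = 0.0536 to 0.177). Primitive endoderm markers summed to 129 and 281 in the 2 wild-type 24 h libraries, and their part in the 24 h values of *Gabarap* and *Ulk1* was not tested. In DKO *Gabarap* was at 102 and 93.9 (0 h), 142 and 77.3 (24 h) and 116 and 71 (72 h). *Gabarapl1*, the scarcest ATG8 gene, was at 12.3 and 17.3 (0 h) and 13.1 and 12.5 (144 h) in spike-in TPM, a change of −0.18 (adjusted p = 0.714). It rose from 5.83 and 8.22 to 12.3 and 12.5 in deposited TPM (0.76 ± 0.21, adjusted p = 0.0219).

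The make-up of the ATG8 transcripts does not depend on the spike-in factor, because all genes of a library share it. *Gabarapl2* made up 66.1% and 63% of the summed TPM of the 5 genes in the wild-type replicates (0 h), 57.9% and 52% (24 h), 58.7% and 59.6% (72 h) and 45.4% and 45.1% (144 h). The shares of *Map1lc3b* at 0 and 144 h were 13% and 13.5% and then 23.2% and 22.6%, those of *Gabarap* 13% and 14.2% and 19.98% and 20.7%. In both wild-type libraries of 144 h *Gabarapl2* held under 46% of the ATG8 transcripts, and in each of the other 12 libraries it held over 52%. In DKO its share was 65.4% and 72.5% (0 h), 63.8% and 68.7% (24 h) and 70.6% and 70.5% (72 h). At 24 h and at 72 h the 2 DKO shares lay above both wild-type ones, and at 0 h the replicates of the genotypes overlapped.

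**Figure D3:**
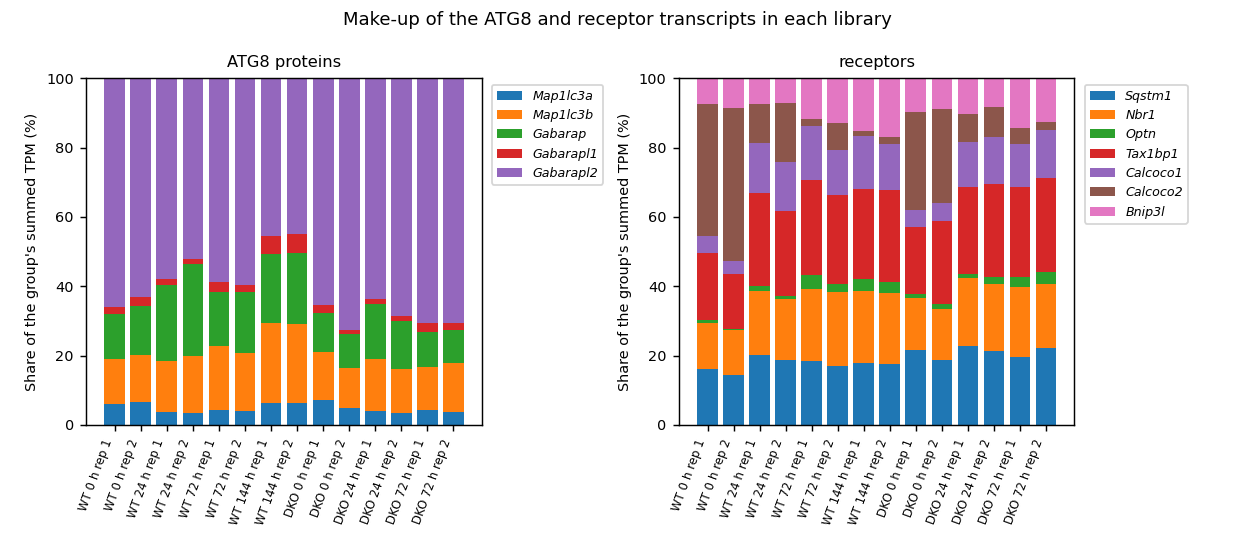
Share of each gene in the summed TPM of its group (y axis, percent) in each of the 14 libraries, for the 5 ATG8 genes on the left and the 7 receptor genes on the right. *Gabarapl2* takes the largest share of the ATG8 transcripts, down to 45.4% and 45.1% at WT 144 h, and *Calcoco2* goes from 38.1% and 44.1% of the receptor transcripts at WT 0 h to 1.69% and 1.80% at WT 144 h.

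In spike-in TPM without the block, the receptors held both the largest fall and 2 of the 3 rises that were called, all in wild type. Of all genes, 1.25% were called higher there at 24 h and 0.697% at 72 h. In deposited TPM 4, 2 and 3 of the 7 receptor genes were called higher in wild type at 24, 72 and 144 h. The shares of all genes were then 15.8%, 12.6% and 15.6%. *Calcoco2* (NDP52; ENSMUSG00000006056.13, mm10 chr11:96099326-96111964, minus strand), whose human counterpart is known for capturing invading bacteria and damaged mitochondria, was the most abundant autophagy gene in wild type at 0 h. Its spike-in TPM in wild type was 429.6 and 557 (0 h), 83.1 and 188 (24 h), 13.2 and 44.6 (72 h) and 7.01 and 7.06 (144 h). Each later time lay below the earlier ones in both replicates, with no overlap between groups. The log2 change was −1.96 ± 0.48 at 24 h (adjusted p = 0.0137), −4.27 ± 0.48 at 72 h (adjusted p = 7.13e-05) and −5.93 ± 0.48 at 144 h (adjusted p = 5.15e-07). In deposited TPM the changes were −1.58, −3.80 and −4.90, all called. The 24 h call was lost without wild-type 0 h replicate 2 (adjusted p = 0.0999) or without 24 h replicate 1 (0.187), and those at 72 and 144 h held in all 14 fits without 1 library.

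In DKO *Calcoco2* was at 380.3 and 332 (0 h), 91.4 and 55.8 (24 h) and 49.9 and 17.9 (72 h) spike-in TPM. The treated libraries lay below the untreated ones, with changes of −2.30 ± 0.48 at 24 h (adjusted p = 0.00339) and −3.52 ± 0.48 at 72 h (adjusted p = 4.02e-04), both of which held in all 14 fits without 1 library. The difference of the DKO and wild-type changes was −0.34 ± 0.68 at 24 h and 0.75 ± 0.68 at 72 h, and neither was called (adjusted p = 1 and 1). The 72 h difference changed sign without wild-type 72 h replicate 1. In spike-in TPM without the block, *Calcoco2* was the 1 autophagy gene called in all 5 comparisons of a time point with 0 h. On the deposited scale *Wipi1*, *Atg5* and *Pik3c3* were called in all 5 as well. Without the filter on low values, the 24 h calls of *Calcoco2* were lost in both genotypes. Its share of the receptor transcripts went from 38.1% and 44.1% to 1.69% and 1.80% in wild type between 0 and 144 h and from 28.4% and 27.3% to 4.68% and 2.31% in DKO between 0 and 72 h. Of its transcript 50-mers, 10.2% also occur in 2 other genes, *Gm11701* and *Gm9697*, each with a mean under 1 spike-in TPM in every group.

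*Calcoco1* (ENSMUSG00000023055.10, mm10 chr15:102706777-102722178, minus strand), a paralogue that has been described as a receptor for the endoplasmic reticulum and the Golgi, was called higher at 24 h, when *Calcoco2* was called lower. It was at 55.5 and 48 (0 h), 109.9 and 156 (24 h), 101 and 74.9 (72 h) and 62.9 and 53 (144 h) spike-in TPM in wild type. The 24 h libraries were the highest, and those of 144 h overlapped those of 0 h. The log2 change was 1.32 ± 0.29 at 24 h (adjusted p = 0.00743), 0.74 ± 0.29 at 72 h (adjusted p = 0.113) and 0.16 ± 0.29 at 144 h (adjusted p = 0.66). In deposited TPM it was called higher at all 3 times (1.67, 1.15 and 1.16). The 24 h call was lost without wild-type 0 h replicate 2 (adjusted p = 0.0975) or 24 h replicate 2 (0.0730). The part of the primitive endoderm markers that rose in these libraries was not tested. In DKO it was at 66.3 and 62.1 (0 h), 139.6 and 87.5 (24 h) and 132 and 106 (72 h). The changes of 0.78 ± 0.29 (adjusted p = 0.0669) and 0.87 ± 0.29 (adjusted p = 0.0966) were called with the replicate block (adjusted p = 0.0124 and 0.014). Its share of the receptor transcripts was 4.92% and 3.80% (0 h) and 14.6% and 14.1% (24 h) in wild type, and 4.95% and 5.11% and 12.7% and 13.6% in DKO.

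*Optn* (optineurin), a receptor for ubiquitin-marked mitochondria and bacteria, was at 10.4 and 5.85 (0 h), 9.81 and 9.11 (24 h), 25.3 and 14.1 (72 h) and 13.8 and 13.1 (144 h) spike-in TPM in wild type. The 72 h libraries and those of 144 h lay above both untreated ones, though the 2 replicates of 72 h were far apart. The change was 1.17 ± 0.35 at 72 h (adjusted p = 0.0439) and 0.71 ± 0.35 at 144 h (adjusted p = 0.0937, and 0.0201 with the replicate block). The 72 h call was lost in 8 of 14 fits without 1 library, with an adjusted p of up to 0.416 without wild-type 0 h replicate 2. In deposited TPM both were called (1.46 and 1.57). In DKO it was at 13 and 18.6 (0 h), 12.5 and 11.9 (24 h) and 31.1 and 25.2 (72 h). The change at 72 h was 0.81 ± 0.35 (adjusted p = 0.202, and 0.0337 with the block).

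*Sqstm1* (p62), the best known receptor for ubiquitin-marked cargo, was at 182 and 182 (0 h), 152 and 207 (24 h), 119.7 and 96.8 (72 h) and 74 and 68.7 (144 h) spike-in TPM in wild type. Untreated and 24 h libraries overlapped and those of 72 and 144 h were lower, with a change of −1.34 ± 0.29 at 144 h (adjusted p = 0.00165). On the deposited scale it was called higher at 24 h (0.33 ± 0.10) and lower at 72 h (−0.32 ± 0.10) and 144 h (−0.32 ± 0.10). In DKO it was at 287 and 227 (0 h), 249.8 and 136 (24 h) and 210.3 and 172 (72 h) and was not called. *Tax1bp1*, which also binds ubiquitin and had the highest mean of the receptors over all 14 libraries, was at 219 and 199 (0 h), 202 and 272 (24 h), 177 and 147 (72 h) and 109 and 103 (144 h) in wild type and 259.6 and 291 (0 h), 276 and 173 (24 h) and 277 and 212 (72 h) in DKO. Both *Tax1bp1* (−0.97 ± 0.28) and *Nbr1* (−0.90 ± 0.29) were called lower at 144 h in spike-in TPM (adjusted p = 0.00809 and 0.0168) and had values of 0.049 and 0.12 in deposited TPM that were not called. *Bnip3l* (NIX), a mitochondrial receptor, was at 84.2 and 109.96 (0 h) and 62.6 and 66.8 (144 h), a change of −0.57 that was not called in spike-in TPM (adjusted p = 0.149) without the block and was called lower with it (adjusted p = 0.0296). As deposited, it was called higher (0.45, adjusted p = 0.038). Of its 50-mers, 20.8% also occur in a pseudogene.

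**Figure D4:**
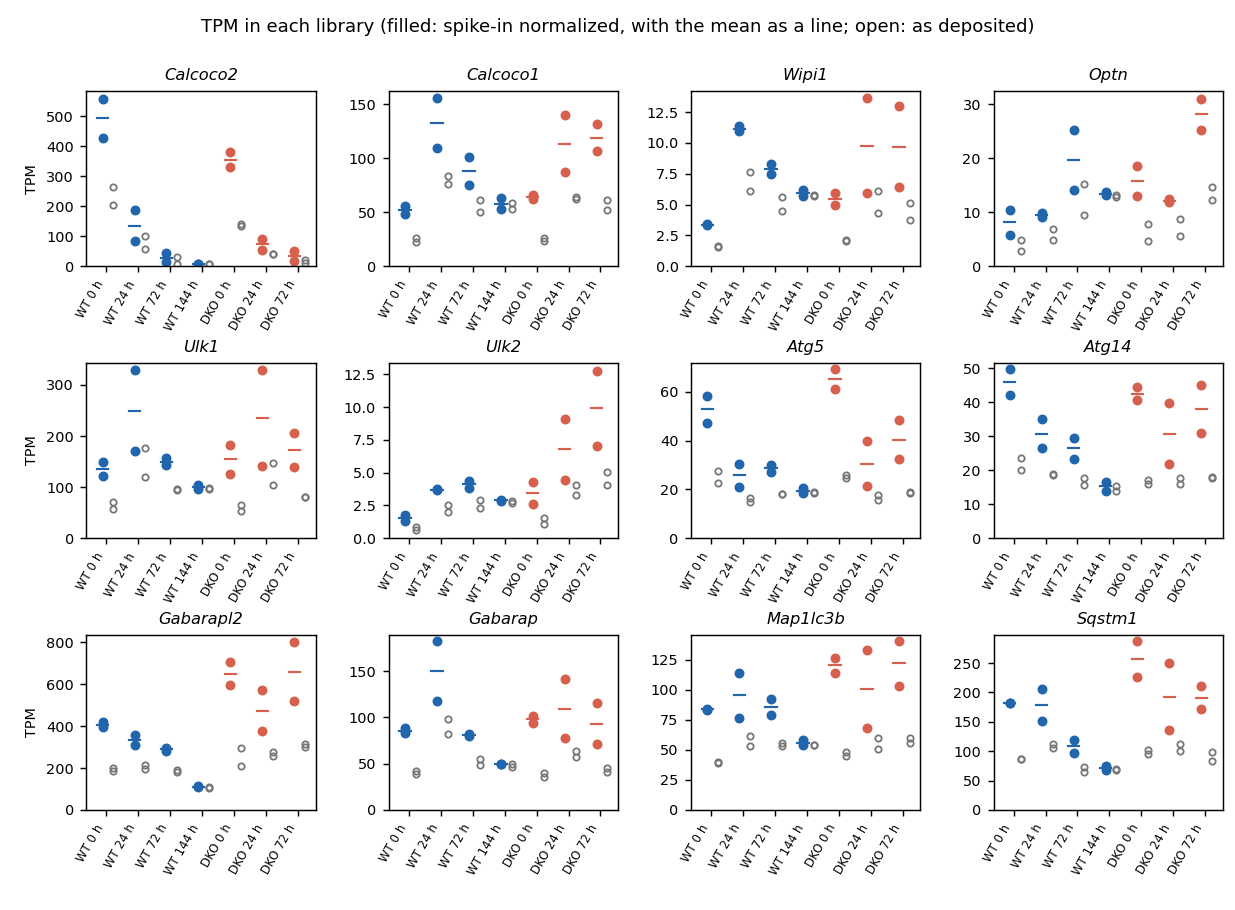
TPM (y axis, linear from 0) of *Calcoco2*, *Calcoco1*, *Wipi1*, *Optn*, *Ulk1*, *Ulk2*, *Atg5*, *Atg14*, *Gabarapl2*, *Gabarap*, *Map1lc3b* and *Sqstm1* in each library by group (x axis), with spike-in TPM as filled points in blue for WT and red for DKO, their group mean as a line, and deposited TPM as open grey points. *Calcoco2* drops from 429.6 and 557 to 7.01 and 7.06 in WT, where *Calcoco1* and *Ulk1* are highest at 24 h. In DKO at 24 h and 72 h the 2 filled points of a gene lie further apart than its open points, except for *Optn* at 24 h (12.5 and 11.9 filled, 5.57 and 8.74 open).

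The late factors *Tecpr1* and *Epg5*, which act where autophagosomes meet lysosomes, were both called lower at 144 h (−1.12 ± 0.34, adjusted p = 0.0112, and −0.94 ± 0.33, adjusted p = 0.0256). *Epg5* was at 20.1 and 22.3 (0 h), 18.4 and 25.3 (24 h), 17.6 and 16.5 (72 h) and 11 and 10.1 (144 h) spike-in TPM in wild type and 26.2 and 21.1 (0 h), 26.6 and 15 (24 h) and 29.6 and 18.8 (72 h) in DKO. In deposited TPM neither was called at 144 h, with values of −0.17 and 0.019.

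The time at which a gene was highest in wild type also depended on the scale. In spike-in TPM 25 of the 40 genes had their highest group mean at 0 h, 12 at 24 h, 3 at 72 h (*Ulk2*, *Rb1cc1* and *Optn*) and none at 144 h. On the deposited scale these counts were 9, 22, 1 and 8. The 9 genes highest at 0 h in deposited TPM (*Atg101*, *Atg14*, *Ambra1*, *Atg16l1*, *Atg5*, *Atg10*, *Atg4a*, *Map1lc3a* and *Calcoco2*) were highest at 0 h in spike-in TPM too. The summed deposited TPM of the 40 genes in the wild-type replicates was 1424 and 1569 (0 h), 1618 and 1807 (24 h), 1386 and 1401 (72 h), and 1299 and 1312 (144 h). Without *Calcoco2* the sum was 1220.2 and 1305 (0 h), 1560.2 and 1705 (24 h), 1378 and 1371 (72 h), and 1293 and 1305 (144 h). Apart from this gene, the 144 h sums lay between those of the 2 untreated libraries.

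The same question was asked of the DKO cells over their first 72 h. At 24 h 4 of the 40 genes were called lower (*Calcoco2*, *Atg5*, *Map1lc3a* and *Atg101*) and none higher, beside 18.7% and 0.505% of all genes. At 72 h 1 was called lower (*Calcoco2*) and none higher, beside 2.95% and 0.713%. At unadjusted p under 0.05 the counts were 11 and 7 of 40, beside 34.0% and 19.7% of all genes. The median log2 change was −0.49 at 24 h and −0.15 at 72 h, beside −0.49 and −0.12 for all genes. The 24 h median of the 40 genes was −0.91 without DKO 24 h replicate 1 and −0.090 without replicate 2 (all genes −0.85 and −0.13). That of 72 h was −0.39 without DKO 72 h replicate 1 and 0.12 without replicate 2 (all genes −0.40 and 0.14), so its sign rests on 1 library. Under the replicate block 15 genes fell and 3 rose by 24 h (38.1% and 1.95% of all genes), and 4 fell and 3 rose by 72 h (13.2% and 5.34%). The 3 higher were *Ulk2*, *Wipi1* and *Calcoco1* at 24 h and *Ulk2*, *Optn* and *Calcoco1* at 72 h. On the deposited scale 4 fell and 9 rose by 24 h (13.3% and 11.6%), and 4 fell and 8 rose by 72 h (9.06% and 17.2%). Without DKO 24 h replicate 1, the library with the larger factor, 25 genes were called lower at 24 h, as were 47.7% of all genes. Without replicate 2 of that group or either DKO 0 h library 1 gene was, beside 5.35% (24 h replicate 2), 4.17% (0 h replicate 1) and 9.0% (0 h replicate 2) of all genes. The wild-type and DKO changes are each measured against their own 0 h libraries.

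The libraries labelled DKO were then compared with wild type at the same time. With limma no autophagy gene was called at 0, 24 or 72 h. Of all genes, the untreated comparison called 0.0165% lower and 0.0274% higher, the one at 24 h 0.0329% and 0.0110%, and the one at 72 h 0.0274% and 0.302%. Among the 40 at unadjusted p under 0.05 the counts were 3, 0 and 11 (8.35%, 4.14% and 23.0% of all genes), and in deposited TPM 4, 6 and 8 (13.9%, 14.8% and 21.2%). In deposited TPM the share of all genes called was 0.176% lower and 0.422% higher at 0 h, where no autophagy gene was called. The median log2 difference of the 40 genes was 0.36, 0.02 and 0.49, beside 0.29, 0.10 and 0.49 for all genes. At 24 h this median turned to −0.40 without DKO 24 h replicate 1 and −0.16 without wild-type 24 h replicate 1, and was 0.45 without DKO 24 h replicate 2 (all genes −0.26, −0.084 and 0.47). At 72 h it was 0.23 without DKO 72 h replicate 1 (all genes 0.24) and 0.73 without replicate 2 (all genes 0.75). At 0 h the largest differences were those of *Optn* (0.90 ± 0.35, adjusted p = 0.53), *Ulk2* (0.79 ± 0.38, adjusted p = 0.596) and *Gabarapl2* (0.67 ± 0.27, adjusted p = 0.548). At 24 h they were those of *Calcoco2* (−0.80 ± 0.48), *Ulk2* (0.66 ± 0.38) and *Gabarapl2* (0.48 ± 0.27), with adjusted p of 1 for each, and *Gabarap* lay as far to the other side (−0.48).

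At 72 h *Atg4c* (1.42 ± 0.36, adjusted p = 0.0916), *Gabarapl2* (1.15 ± 0.27, adjusted p = 0.0703) and *Atg4b* (1.05 ± 0.40, adjusted p = 0.179) differed most. Both DKO libraries lay above both wild-type ones for each of these 3 genes. In deposited TPM *Atg4c* (0.97 ± 0.15, adjusted p = 0.0132) and *Gabarapl2* (0.74 ± 0.13, adjusted p = 0.0212) were called higher in the libraries labelled DKO at 72 h, beside 3.17% of all genes higher and 0.845% lower. *Gabarap* was called lower at 24 h (−0.57 ± 0.11, adjusted p = 0.0398), beside 0.790% lower and 0.581% higher. All 40 genes had a fitted value above 0 at 72 h in spike-in TPM and 27 of 40 in deposited TPM, where 91.7% and 66.1% of all genes did. Without either DKO 24 h library, which enters only through the shared estimate of spread, 4 genes were called higher at 72 h in spike-in TPM (these 3 and *Sqstm1*), beside 6.73% of all genes without replicate 1 and 6.66% without replicate 2.

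The change from 0 h was not called different between the genotypes for any of the 40 genes, at 24 or 72 h. Of all genes, 0.00548% were called at 24 h, with the DKO change the lower, and 0 at 72 h. Among the 40 genes limma gave an unadjusted p under 0.05 to 0 at both times (1.22% and 0.993% of all genes), to 1 and 1 with the replicate block (4.18% and 3.75%), and to 3 and 3 in deposited TPM (3.87% and 3.71%). The largest differences of the DKO and wild-type changes at 24 h were those of *Wipi1* (−0.83 ± 0.54), *Gabarap* (−0.67 ± 0.44) and *Optn* (−0.57 ± 0.50), with an adjusted p of 1 each. At 72 h they were those of *Atg4c* (0.86 ± 0.52), *Calcoco2* (0.75 ± 0.68) and *Atg10* (0.68 ± 0.48), with an adjusted p of 1 each. The standard errors of these differences ran from 0.39 to 0.68 on the log2 scale over the 40 genes.

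A second list held 40 other autophagy genes, taken by role, namely genes of the core and membrane steps, of fusion with lysosomes and further receptors of selective autophagy. Of these, 38 were tested. In wild type 4 fell and 2 rose by 24 h, 5 fell and 0 rose by 72 h, and 25 fell and 0 rose by 144 h, beside 8.73% and 1.25%, 7.60% and 0.697%, and 50.5% and 0.461% of all genes. In DKO 7 fell by 24 h and 2 by 72 h, beside 18.7% and 2.95% of all genes, and 0 rose. At wild-type 144 h the core and membrane genes had 8 of 9 called lower, the fusion genes 8 of 13 and the other receptors 9 of 16, all to be read against the 50.5% of all genes called lower then. The median log2 change of the 38 at that time was −1.08, beside −0.83 for all genes and −0.93 for the first 40, and in deposited TPM 8 were called lower and 8 higher (11.7% and 15.6% of all genes), with a median of −0.08. With the replicate block 34 were called lower (66.3% of all genes). The 3 called genes with the largest change at 144 h were *Vamp8*, *Ykt6* and *Tex264*. *Vamp8*, a SNARE protein gene of autophagosome and lysosome fusion, was at 24 and 27.1 (0 h), 19.9 and 28.2 (24 h), 6.57 and 6.28 (72 h) and 5.84 and 3.90 (144 h) spike-in TPM. Its log2 change at 144 h was −2.20 ± 0.34 (adjusted p = 1.59e-04). *Ykt6*, which encodes another SNARE of that step, was at 121 and 115 (0 h), 39 and 45.6 (24 h), 56.1 and 46.4 (72 h) and 35.9 and 31 (144 h), already low at 24 h. Its change at 144 h was −1.79 ± 0.29 (adjusted p = 2.00e-04). *Tex264*, a receptor for the endoplasmic reticulum, was at 49.6 and 46.8 (0 h), 46 and 54.5 (24 h), 29.4 and 24.6 (72 h) and 13.4 and 13.6 (144 h), with a change of −1.76 ± 0.28 (adjusted p = 1.92e-04). All 3 were called lower at 144 h in deposited TPM as well (−1.22, −0.77 and −0.76).

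Several of these genes share sequence with others. The StringTie options that the study lists (-e) include no strand setting, and use of strand is not otherwise stated. At least 10% of the transcript 50-mers occurred in another gene on the same strand for 5 genes (*Atg4a*, *Atg9a*, *Bnip3l*, *Gabarapl2* and *Calcoco2*) and on the opposite strand for 6 (*Becn1*, *Gabarapl1*, *Uvrag*, *Sqstm1*, *Atg4d* and *Atg4a*). *Becn1* shares 36.8% on the opposite strand. The genes sharing most sequence with it were, in falling order, *Cntd1*, *Phkg1* and *Mrps17*. *Cntd1* overlaps *Becn1* on the opposite strand over 10366 bases, and the part of each gene in the 36.8% is not given here. Their mean spike-in TPM in wild type was 2.10, 7.33 and 138 at 0 h and 1.09, 1.51 and 50.3 at 144 h. *Sqstm1* shares 15.5% with *Mrnip*, at 14.04 and 13.4. *Wipi1*, *Optn* and *Calcoco1* share under 2% with other genes on either strand.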

How the data were processed

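Total RNA from a fixed number of sorted cells received ERCC spike-ins, was depleted of ribosomal RNA and was sequenced by the authors, and per the labels reads were trimmed, mapped and quantified with cutadapt 2.4, STAR 2.7.3a and StringTie 2.0 (submitters' processing notes). The deposited TPM values are the authors' StringTie estimates on mm10, with 54446 gene identifiers, no ERCC entries and a sum of 1000000 per library. TPM keep no counts, so the depth is unknown here and a count model such as that of the study could not be run.

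Deposited TPM were multiplied by 1 factor per library, the median ratio of the study's spike-in normalized expression table to deposited TPM over the genes of its 1999 readable entries with 1 TPM or more (482 to 539 genes per library). The values of that table entered only through these factors. Whether they are the factors of the authors' final analysis is not given in the sources used here, and every spike-in value rests on them. log2(TPM + 1) was fitted with limma 3.58.1 (R 4.3.3) with a mean-variance trend, with all 7 groups in 1 model. Genes with a mean of 1 or more over the 14 libraries were kept (18232) and p-values were adjusted by Benjamini-Hochberg. A fold change on this scale understates that of low genes. The study calls its replicates biological and its experiments independently repeated, and the labels do not say what separated the replicates of these libraries.

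The deviations of same-numbered libraries correlated within wild type (5 of 6 pairs over 0.1, range 0.0622 to 0.398) and within DKO (3 of 3, 0.222 to 0.341). Between genotypes 1 of 12 pairs was over 0.1, with a range of −0.501 to 0.116. Some of these were negative and larger in size than any within a genotype, as at 0 h (−0.431) and 24 h (−0.501). The comparisons of DKO with wild type at the same time were not fitted with a block within genotype. The study states that the time points of a replicate were handled in parallel. The numbers were therefore taken to pair libraries within a genotype, and a fit with that block was the alternative.

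Other alternatives were deposited TPM, a pseudocount of 0.1, no filter, a block across all libraries and leaving out each library. The members and lists were chosen with earlier results of these data known. Values in every library are given for the 6 members with the largest change at wild-type 144 h, the 3 largest in each other comparison and the highest member of each role. For the 3 called genes of the second list with the largest change, values are given in the wild-type libraries only. Other members are named by role. Shared 50-base stretches were counted in GENCODE vM21 transcripts, and promoter sequences were taken from RefSeq (GRCm38.p6). Markers listed were those of ES cells, primitive endoderm, trophectoderm, mesendoderm, neuroectoderm and fibroblasts.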

Additional observations from a re-analysis of the deposited data

How the results depend on the processing

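The counts of autophagy genes called depended on the scaling. In deposited TPM 5 fell and 14 rose in wild type by 24 h, 6 fell and 7 rose by 72 h, and 6 fell and 9 rose by 144 h. In DKO 4 fell and 9 rose by 24 h, and 4 fell and 8 rose by 72 h. Against wild type 1 was lower in DKO at 24 h and 2 were higher at 72 h. At wild-type 144 h *Becn1* (0.028), *Pik3r4* (0.047), *Atg2a* (0.027), *Wipi2* (0.19), *Atg3* (0.10), *Gabarap* (0.23), *Nbr1* (0.12), *Tax1bp1* (0.049) and *Epg5* (0.019) went from a called fall to a log2 change above 0, also in deposited TPM with the block. The cause was not tested beyond the factor itself, which moved the median of all genes from 0.05 to −0.83.

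The block by replicate number inside each genotype gave 6 falls and 5 rises in wild type by 24 h, 9 falls and 4 rises by 72 h, and 33 falls and 3 rises by 144 h. In DKO it gave 15 falls and 3 rises by 24 h, and 4 falls and 3 rises by 72 h. It changed no call between the genotypes' changes, and all 25 genes called lower at 144 h stayed called. Deposited TPM with this block, an alternative added after the data were seen, gave 5 falls and 15 rises (17.7% and 19.3% of all genes), then 6 and 10 (15.2% and 16.8%), then 8 and 10 (15.6% and 19.9%) in wild type, and 4 falls and 11 rises (16.6% and 15.3%), then 4 and 14 (12.3% and 23.5%), in DKO.

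A block across all libraries and a pseudocount of 0.1 each left 1 gene lower in wild type at 24 h, beside 9.0% and 8.46% of all genes. Without the filter, which leaves more genes to adjust over, there were 0 lower and 1 higher at 24 h (2.34% and 0.393% of all genes), 0 higher at 72 h (0.224%), and 0 lower in DKO at 24 h (5.93%). The count lower at wild-type 144 h was then 19, beside 18.2% of all 38890 genes.

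Leaving out 1 library gave ranges of 0 to 3 falls and 0 to 4 rises in wild type by 24 h, 1 to 6 falls and 0 to 4 rises by 72 h, and 10 to 30 falls and 0 to 0 rises by 144 h. The share of all genes that fell in these fits ran from 1.46% to 17.2%, 0.318% to 17.2% and 21.5% to 59.7%, and the share that rose from 0.324% to 2.55%, 0.0494% to 1.68% and 0.181% to 0.729%. In DKO the ranges were 1 to 25 falls and 0 to 1 rises by 24 h, and 1 to 2 falls and 0 to 2 rises by 72 h, beside falls of 4.17% to 47.7% and 0.362% to 7.95% and rises of 0.154% to 0.993% and 0.0823% to 2.54% of all genes. At 24 h in wild type 0 genes were lower without wild-type 0 h replicate 2 or 24 h replicate 1, and 0 were higher without 0 h replicate 2 or 24 h replicate 2. Against wild type at 72 h 0 to 4 were higher in DKO, beside 0 to 6.73% of all genes, and the other counts between genotypes stayed at 0 to 0. The difference of changes of *Calcoco2* at 72 h went from 0.75 to −0.094 without wild-type 72 h replicate 1 and to 1.59 without replicate 2. Depth could not be weighed, because TPM hold no counts.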

Other observations

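The 14 spike-in factors each equalled 76 divided by a whole number, from 27 to 76, within a tolerance of 0.005 of a whole number. What these whole numbers stand for is not given in the sources used here. If they are rounded values, the rounding alone limits each factor to within 0.658 to 1.85%. Any other error of the factors is unknown and was not tested.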
